A study of Mus musculus with 16 samples.

Results

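The genes described here are Rnase12, Rnase11, Rnase9, Rnase10, Rnase4 and Rnase6, mouse genes of the RNase A family that lie in a cluster on chromosome 14. They were chosen by name around Rnase12, which had stood out for its high level in Pax5 leukemia, so that the contrast of Pax5 leukemia with wild type (WT) entered the choice. A member was measured through probe sets annotated to it and to no other gene, and the probe set with the highest mean was kept. On that rule 5 of the 6 genes were measured, among 19938 genes in all. Rnase4 was represented only by a probe set annotated to both Rnase4 and Ang, which is given without being assigned to either gene.

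The arrays came from a mouse study of precursor B cell leukemia, in which loss of an allele of the transcription factor gene Pax5 is combined with loss of an allele of Bank1, a B cell scaffold protein gene. RNA was measured on 16 arrays. There were 6 arrays of total bone marrow from leukemic Bank1+/- + Pax5+/- mice (Bank1/Pax5 leukemia), 6 of total bone marrow from leukemic Pax5+/- mice (Pax5 leukemia). The remaining 4 arrays held pro-B and pre-B cells of WT mice. Both leukemia groups thus carry the Pax5+/- genotype and differ in Bank1. Per the labels the mice were kept in conventional housing with exposure to common pathogens. The sources used here do not state ages, sexes, time of leukemia or how the WT cells were isolated. On the WT arrays 1 label, the cell type, names leukemic cells, whereas title, source, tissue and genotype all give WT precursors, and they were taken as such. The design text names 3 WT mice although there are 4 WT arrays, so that p-values measure the spread between these arrays, part of which may be technical.

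RNase A enzymes are small secreted ribonucleases that cut single-stranded RNA, and several of them also act as antimicrobial proteins. Rnase4 and Ang, the gene of angiogenin, share promoters and 5' exons in a single locus. Rnase6 is known from monocytes, macrophages and other immune cells as an antimicrobial ribonuclease. Rnase9, Rnase10, Rnase11 and Rnase12 form a divergent branch whose products lack parts of the catalytic site and are known mainly from the male reproductive tract. In the annotation (assembly GRCm38.p6) the genes follow each other in the order Pnp, Pnp2, Rnase10, Rnase9, Rnase11, Rnase12, Olfr750, Ang with Rnase4, Eddm3b and Rnase6. Rnase9, Rnase11 and Rnase12 are on the minus strand, whereas Rnase10, Rnase4 and Rnase6 are on the plus strand.

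The 250 bases before the annotated start are shown for Rnase12 and its neighbour Rnase11, which had the largest positive differences between Pax5 leukemia and WT among the members measured alone, and for Rnase6, which had the opposite direction. The sequences are from RefSeq (GRCm38.p6), read 5' to 3' on the strand of the gene. The windows are chr14:51057243-51057492 on the minus strand for Rnase12, chr14:51050164-51050413 on the minus strand for Rnase11, and chr14:51128814-51129063 on the plus strand for Rnase6, the first of its 3 annotated starts. Capitals mark matches to the E-box CANNTG, bound by E2A and related factors, and to the PU.1 core GAGGAA or its complement. EBF1 matches (CCCNNGGG) would also be in capitals, but these 3 windows hold none.
Rnase12: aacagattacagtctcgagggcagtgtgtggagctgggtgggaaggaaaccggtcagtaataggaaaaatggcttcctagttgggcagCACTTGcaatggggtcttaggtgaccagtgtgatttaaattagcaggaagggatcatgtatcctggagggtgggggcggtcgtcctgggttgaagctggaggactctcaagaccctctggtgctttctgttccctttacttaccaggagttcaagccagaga
Rnase11: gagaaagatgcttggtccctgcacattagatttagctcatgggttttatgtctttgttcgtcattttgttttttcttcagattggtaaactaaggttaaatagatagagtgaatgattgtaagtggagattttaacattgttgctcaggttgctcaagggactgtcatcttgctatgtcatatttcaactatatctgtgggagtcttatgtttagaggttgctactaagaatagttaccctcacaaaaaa
Rnase6: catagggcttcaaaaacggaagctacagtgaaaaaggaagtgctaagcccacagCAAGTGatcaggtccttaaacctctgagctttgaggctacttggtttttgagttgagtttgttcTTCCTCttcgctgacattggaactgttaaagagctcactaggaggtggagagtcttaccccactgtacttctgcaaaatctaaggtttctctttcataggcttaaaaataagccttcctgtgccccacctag

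The Rnase12 window held 1 E-box, 162 bases before the start, and the Rnase11 window held no match to any of the 5 motifs searched. Beyond the E-box, PU.1 and EBF1 motifs, the search covered the RUNX motif TGTGGT. The last of the 5 was the TATA box, spelled TATAAA. Both strands were read, and no motif was required to stand clear of another. The Rnase6 window held an E-box 196 bases and a PU.1 core 132 bases before the start. Among 32851 annotated windows of this length, 66.2% held an E-box, 23.3% a PU.1 core, 14.05% a RUNX match, 12.4% a TATA match and 11.8% an EBF1 match. GC content was 51.6% in the Rnase12 window, 35.6% in the Rnase11 window and 44.4% in the Rnase6 window. The pair of adjacent genes that was high in Pax5 leukemia thus shared no match to these motifs within these windows.

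Rnase12 showed the most marked pattern among the members. On the 6 Pax5 leukemia arrays, numbered 1 to 6 as in the labels, its log2 intensity was 10.33, 12.55, 12.53, 12.39, 12.23 and 12.50. The WT arrays gave 6.87, 6.71, 6.34 and 6.30. On Bank1/Pax5 leukemia arrays 1 to 6 the values were 5.97, 5.97, 5.82, 10.04, 11.72 and 5.87. Every Pax5 leukemia was above every WT array, while Bank1/Pax5 leukemia split into 4 arrays below all WT arrays and 2 arrays, numbers 4 and 5, far above them. The lowest Pax5 leukemia, array 1, lay between those 2 high Bank1/Pax5 arrays. Levels under 6.96, the median over named probe sets, are called dim, and the size of a difference that starts from a dim level is not well bounded. All WT arrays and the 4 low Bank1/Pax5 arrays were dim for Rnase12.

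The mean Rnase12 level was 12.09 ± 0.87 (SD, n = 6) in Pax5 leukemia, 7.56 ± 2.62 (SD, n = 6) in Bank1/Pax5 leukemia and 6.56 ± 0.28 (SD, n = 4) in WT. The difference of Pax5 leukemia from WT, 5.53 log2 (SE 1.05) or 46.2-fold, is a description only, because it entered the choice of the genes. The Bank1/Pax5 mean described no single array, and the group median of 5.97 lay among the low arrays. Bank1/Pax5 leukemia exceeded WT by 1.01 log2 (SE 1.05), which did not pass the test (adjusted p = 0.536). That difference was 0.17 log2 without Bank1/Pax5 array 5 and 0.51 log2 without array 4. Against Pax5 leukemia, Rnase12 in Bank1/Pax5 leukemia fell by 4.52 log2 (SE 0.94), a 23.0-fold difference that passed (adjusted p = 0.0127). The groups overlapped, since array 5 of Bank1/Pax5 leukemia was above array 1 of Pax5 leukemia. The call did not hold in a fit of only those 12 arrays, where the adjusted p was 0.0504. This contrast uses the Pax5 arrays whose high level led to the choice of Rnase12, so that it is not independent of that choice, and the contrast with WT shares the WT arrays.

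Rnase11, the neighbour of Rnase12 on the same strand, was next. On Pax5 leukemia arrays 1 to 6 it read 6.99, 9.62, 8.25, 8.15, 7.56 and 8.91 log2. The WT arrays read 6.51, 6.50, 6.53 and 6.62, and Bank1/Pax5 arrays 1 to 6 read 6.17, 6.45, 6.29, 6.41, 7.06 and 6.34. All 6 Pax5 leukemias were above WT, whereas 5 of 6 Bank1/Pax5 arrays were below all WT arrays and array 5 was above them. The mean was 8.25 ± 0.94 (SD, n = 6) in Pax5 leukemia, 6.45 ± 0.31 (SD, n = 6) in Bank1/Pax5 leukemia and 6.54 ± 0.05 (SD, n = 4) in WT, the last 2 of them dim. As a description, Pax5 leukemia was 1.70 log2 (SE 0.37), or 3.26-fold, above WT. Bank1/Pax5 leukemia differed from WT by -0.09 log2 (SE 0.37, adjusted p = 0.895). It fell by 1.79 log2 (SE 0.33), or 3.46-fold, relative to Pax5 leukemia (adjusted p = 0.00729), and this call held under all 24 alternative settings. As for Rnase12, the contrast uses the Pax5 arrays that entered the choice and is not independent of it. The ranges of these groups overlapped only through Bank1/Pax5 array 5, at 7.06, and Pax5 array 1, at 6.99.

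Rnase9 and Rnase10, which precede Rnase11 in the gene order, were dim on all 16 arrays. Rnase10 read 5.11, 6.01, 5.38, 5.22, 5.72 and 5.41 log2 on Pax5 leukemia arrays 1 to 6, against 4.97 to 5.03 on the WT arrays. All 6 Pax5 leukemias were thus above WT, with means of 5.48 ± 0.33 (SD, n = 6) and 5.00 ± 0.03 (SD, n = 4). In Bank1/Pax5 leukemia Rnase10 lay between 4.98 and 5.46, with a median of 5.02 and its highest value on array 5. Rnase9 read 4.86, 5.74, 5.09, 5.09, 4.92 and 5.57 on Pax5 leukemia arrays 1 to 6 and 4.78 to 4.95 on the WT arrays. For Rnase9, 4 of 6 Pax5 leukemias were above all WT arrays, and Bank1/Pax5 leukemia lay between 4.70 and 4.94.

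Described without a test, Pax5 leukemia exceeded WT by 0.48 log2 (SE 0.15) for Rnase10 and by 0.33 log2 (SE 0.14) for Rnase9. Bank1/Pax5 leukemia differed from WT by 0.09 log2 (SE 0.15, adjusted p = 0.703) for Rnase10 and by -0.02 log2 (SE 0.14, adjusted p = 0.935) for Rnase9. Relative to Pax5 leukemia the differences were -0.39 log2 (SE 0.13, adjusted p = 0.0947) for Rnase10 and -0.35 log2 (SE 0.13, adjusted p = 0.118) for Rnase9. Neither passed. At these levels the arrays cannot bound how far either transcript changed.

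The probe set shared by Rnase4 and Ang was brighter in both leukemias than in WT. It read 9.02, 9.20, 9.88, 9.12, 9.10 and 8.71 log2 on Pax5 leukemia arrays 1 to 6. Bank1/Pax5 arrays 1 to 6 gave 8.11, 7.68, 8.51, 9.10, 8.57 and 7.89, and WT arrays gave 6.66, 6.79, 6.72 and 6.70. Every leukemia array was above every WT array. The mean was 9.17 ± 0.39 (SD, n = 6) in Pax5 leukemia, 8.31 ± 0.52 (SD, n = 6) in Bank1/Pax5 leukemia and 6.72 ± 0.06 (SD, n = 4) in WT. The differences from WT were 2.45 log2 (5.47-fold) for Pax5 leukemia and 1.59 log2 (3.01-fold) for Bank1/Pax5 leukemia, both from a dim WT level. Unlike Rnase12, the shared probe set was high on Bank1/Pax5 arrays 1, 2, 3 and 6 as well. Probe sets of several genes were left out of the fit, so these differences carry no test, and the signal of Rnase4 cannot be told apart from that of Ang.

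Rnase6 went the other way. It was bright in the WT precursors, at 11.61, 11.45, 11.38 and 11.32 log2. On Pax5 leukemia arrays 1 to 6 it read 7.66, 9.11, 11.34, 8.02, 9.75 and 7.87, and on Bank1/Pax5 arrays 1 to 6 it read 10.53, 6.91, 10.37, 11.20, 9.91 and 12.40. The values of 5 of 6 arrays in each leukemia group were below all WT arrays, while Pax5 array 3 lay within the WT range and Bank1/Pax5 array 6 above it. The means were 8.96 ± 1.42 (SD, n = 6) in Pax5 leukemia, 10.22 ± 1.84 (SD, n = 6) in Bank1/Pax5 leukemia and 11.44 ± 0.12 (SD, n = 4) in WT. Pax5 leukemia differed from WT by -2.48 log2 (SE 0.88), given as a description. Bank1/Pax5 leukemia differed by -1.22 log2 (SE 0.88, adjusted p = 0.356) from WT and by 1.26 log2 (SE 0.78, adjusted p = 0.356) from Pax5 leukemia, and neither passed. Since leukemic samples are total bone marrow and the WT samples a precursor fraction, fewer cells of a type and less RNA per cell cannot be told apart.

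**Figure D1:**
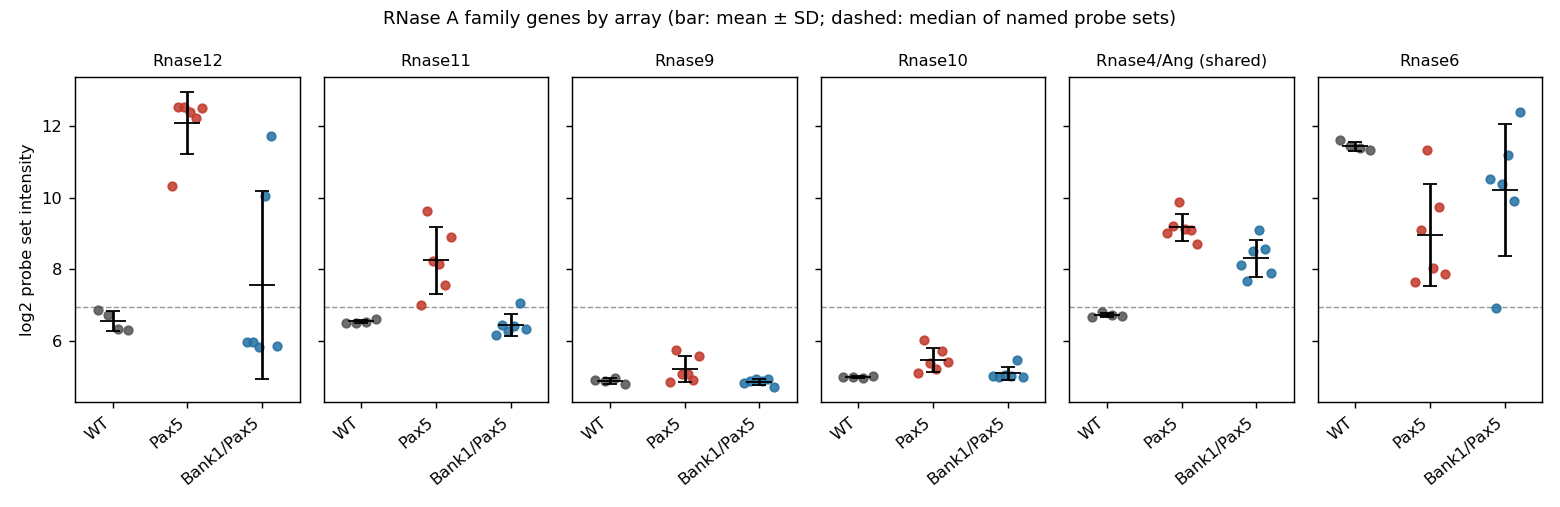
Log2 probe set intensity on each array (points) in WT, Pax5 leukemia and Bank1/Pax5 leukemia for the members measured alone and the probe set shared by Rnase4 and Ang, with group means and SDs as bars and the dim threshold of 6.96 as a dashed line. Rnase12 is at 10.33 to 12.55 in Pax5 leukemia and splits into 4 low and 2 high arrays in Bank1/Pax5 leukemia, while Rnase6 is highest in WT on average.

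Counted over the members, 3 of 5 were called higher and 0 lower in Pax5 leukemia than in WT, beside 9.53% of all genes called higher and 13.8% called lower. Nothing is read from that count, since the contrast entered the choice. It also depended on the setting: Rnase10 was called in 17 of 23 alternative settings. Settings that kept a call are no support for it, since all of them use the contrast that entered the choice. The call of Rnase10 was lost with the replicate block, without Pax5 array 5 and without any 1 of the 4 WT arrays. Rnase6 was called lower in 8 of 24 settings and Rnase9 higher in 2 of 23. In Bank1/Pax5 leukemia 0 of 5 members were called against WT with limma, beside 19.6% of all genes (6.8% higher and 12.8% lower), and none had an unadjusted p under 0.05. Against Pax5 leukemia, Rnase12 and Rnase11 were called lower, 2 of 5 members, beside 5% of all genes called lower, 1.71% called higher and 6.7% called in either direction. Nothing is read from this count either, because the Pax5 arrays it starts from are those whose high Rnase12 level led to the choice. The median difference over the 5 members was 0.48 log2 for Pax5 leukemia minus WT, -0.02 for Bank1/Pax5 leukemia minus WT and -0.39 for Bank1/Pax5 minus Pax5 leukemia. Over all genes these medians were -0.05, -0.03 and 0.02. Separation between groups was complete for 3 of 5 members, all higher, in the contrast of Pax5 leukemia with WT. Of all genes, 24.8% separated there (11.6% higher and 13.2% lower). Between Bank1/Pax5 leukemia and WT 0 of 5 members separated, beside 19.6% of all genes. Between the leukemias none did, beside 2.7% (1.87% lower and 0.833% higher in Bank1/Pax5 leukemia).

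Along the chromosome the measured differences did not form an unbroken block. Olfr750, an olfactory receptor gene that directly follows Rnase12, stayed between 5.27 and 5.76 log2 on all arrays. It was thus dim throughout, and the arrays cannot bound how far its transcript changed. Its difference from WT was -0.19 log2 (SE 0.07, adjusted p = 0.0704) for Pax5 leukemia. For Bank1/Pax5 leukemia it was -0.08 log2 (SE 0.07, adjusted p = 0.456). Eddm3b, a gene of an epididymal secretory protein between Rnase4 and Rnase6, was dim and differed by -0.19 log2 (SE 0.06, adjusted p = 0.0318) and -0.20 log2 (SE 0.06, adjusted p = 0.0286). These calls held in 16 and 18 of 23 alternative settings. The stretch from Rnase10 to the shared Rnase4 and Ang probe set therefore held higher means in Pax5 leukemia than in WT, with Olfr750 as an exception. Within that stretch Rnase10, Rnase9 and Olfr750 were dim, and Rnase9 overlapped WT. The break at Olfr750 thus rests on a dim gene. The next genes, Eddm3b and Rnase6, had lower means than WT.

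Among 27 protein-coding genes listed around the members, 21 were measured, of which 14 were dim in both leukemia and WT. In Pax5 leukemia minus WT, 2 of 21 rose and 2 fell (all genes: 9.53% and 13.8%), with a median of -0.01 log2. Pnp, which encodes the purine nucleoside phosphorylase that precedes Rnase10 with its copy Pnp2, rose by 2.02 log2 (SE 0.27). Apex1, a base excision repair endonuclease gene, rose by 1.63 log2 (SE 0.23). Ttc5, a gene of a p300 cofactor, fell by 0.68 log2 (SE 0.13), and the second gene that fell was Eddm3b. Pnp2 was not measured alone, and near-identical copies can share signal, so that the value of Pnp is uncertain.

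In Bank1/Pax5 leukemia minus WT, 3 of 21 neighbours rose and 4 fell (all genes: 6.8% and 12.8%), with a median of 0.03 log2. Pnp rose by 1.75 log2 and Apex1 by 0.81 log2, so these neighbours were above WT in both leukemias. Rnase2a rose by 0.81 log2, whereas Pip4p1, a phosphatidylinositol phosphatase gene, fell by 0.83 log2. Ttc5 fell by 0.66 log2, Parp2, a DNA damage response enzyme gene, by 0.50 log2, and Eddm3b as given above. Between the leukemias 0 rose and 3 fell in Bank1/Pax5 leukemia (all genes: 1.71% and 5%), with a median of -0.01 log2. They were Apex1, which fell by 0.81 log2 (adjusted p = 0.0279), Pip4p1, which fell by 0.49 log2 (adjusted p = 0.0218), and Parp2, which fell by 0.27 log2 (adjusted p = 0.0453). Of the 24 alternative settings, 18 kept the call of Apex1, 21 that of Pip4p1 and 4 that of Parp2 between the leukemias.

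**Figure D2:**
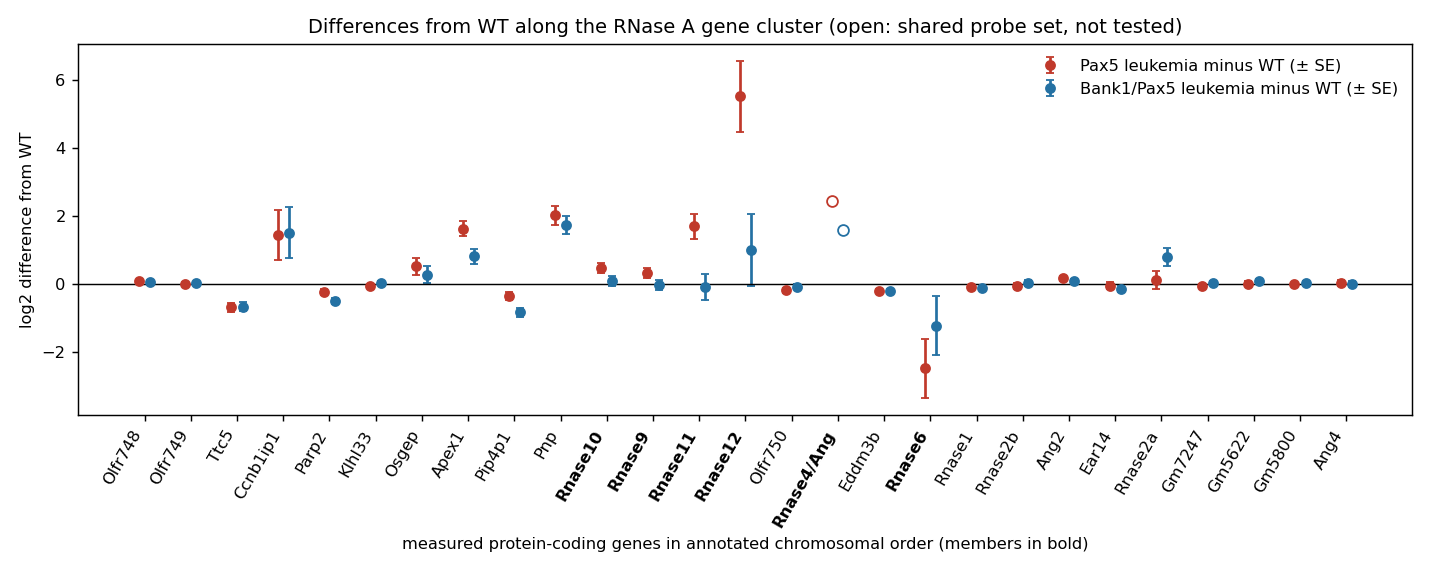
Log2 difference from WT (± SE) for Pax5 leukemia and Bank1/Pax5 leukemia along the measured protein-coding genes in annotated order, with members in bold and open circles for the shared probe set of Rnase4 and Ang. The highest point is Rnase12 in Pax5 leukemia at 5.53, Olfr750 beside it is near 0, and Rnase6 is at -2.48.

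Within Pax5 leukemia Rnase12, Rnase11 and Rnase9 ranked the arrays in nearly the same order, which Rnase10 and Rnase6 shared only in part. Array 2 was the highest and array 1 the lowest for Rnase12, Rnase11, Rnase9 and Rnase10. Rnase11 and Rnase9 put all 6 arrays in the same order, 2, 6, 3, 4, 5 and 1 from high to low. For Rnase9 this order is weakly fixed, since it was dim throughout. Its values on arrays 3 and 4 were 5.0869 and 5.0864, and those on arrays 1 and 5 lay within the WT range. Over the 6 Pax5 arrays Pearson's r with Rnase12 was 0.73 for Rnase11 (Spearman's rho 0.94), 0.56 for Rnase9 (rho 0.94) and 0.53 for Rnase10 (rho 0.60), which was second highest on array 5. For Rnase6, highest on array 3 and also lowest on array 1, r was 0.45 (rho 0.49). The probe set shared by Rnase4 and Ang was also highest on array 3, at 9.88, and lowest on array 6, at 8.71. Between Rnase11 and Rnase9 r was 0.96. Over the 6 Bank1/Pax5 arrays r between Rnase12 and Rnase11 was 0.81 (rho 0.77), where the 2 high Rnase12 arrays, 10.04 and 11.72, were accompanied by Rnase11 levels of 6.41 and 7.06. Bank1/Pax5 array 4 thus had Rnase12 at 10.04 while Rnase11, Rnase9 and Rnase10 were dim there. These are correlations over few arrays, and the genes compared share each marrow sample and array, so they are given as descriptions.

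**Figure D3:**
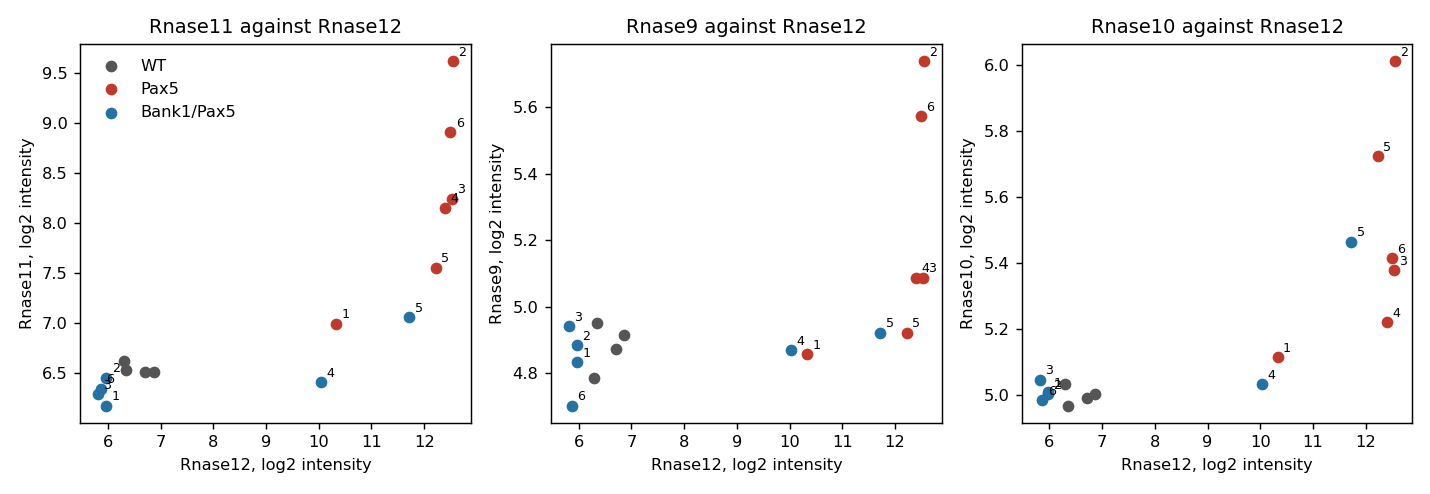
Log2 intensity of Rnase11, Rnase9 and Rnase10 (vertical axes, with different ranges) against Rnase12 (horizontal axis), 1 point per array, leukemia arrays numbered. Array 2 of Pax5 leukemia is the highest in all 3 panels, and the points form a low clump of Rnase12 under 6.96 and a high clump from 10.04 to 12.55.

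Among 2760 genes with an SD of at least 0.5 log2 over the 12 leukemia arrays, Rnase11 was the gene most like Rnase12. Its r was 0.81 and its rho 0.97, and it ranked first by either measure. The next were Snora73b (r = 0.80, rho 0.91) and Snora73a (r = 0.80, rho 0.88), a pair of similar small nucleolar RNAs that act in ribosomal RNA processing and can share probe signal. Leng8 (r = 0.78, rho 0.55), C1qtnf12 (r = 0.77, rho 0.69) and Vaultrc5 (r = 0.75, rho 0.60) completed the first 6. Rnase12 fell into a clump of 4 arrays at 5.82 to 5.97 and 8 arrays at 10.04 to 12.55, so these r values mostly express which arrays belong to which clump. Within the 6 Pax5 arrays r stayed high for Snora73b (0.83), Snora73a (0.81) and Rnase11 (0.73), and was 0.07 for Vaultrc5, -0.51 for Leng8 and -0.54 for C1qtnf12. Snora73a lay at 11.49 to 12.18 log2 in Pax5 leukemia, 9.73 to 10.88 in Bank1/Pax5 leukemia and 10.23 to 10.87 in WT. Rnase6 ranked 2232 among the 2760 genes.

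Of 16 other genes listed for the RNase A superfamily, 10 were measured, and all 10 had dim group means. None of the 10 was called between Pax5 leukemia and WT or between the leukemias, where the medians were both -0.01 log2. In Bank1/Pax5 leukemia 1 of 10 rose over WT, beside 6.8% of all genes. It was Rnase2a, an eosinophil-associated ribonuclease gene, which rose by 0.81 log2 (SE 0.26, adjusted p = 0.0430), a call that held in 9 of 23 alternative settings. On Bank1/Pax5 arrays 1 to 6 it read 6.00, 4.98, 4.87, 5.16, 6.62 and 5.68 log2, against 4.69 to 4.83 on WT arrays. The values on arrays 1 and 5 were the highest. Ear6, another eosinophil-associated ribonuclease gene, named after its values were seen, was not called. It differed from WT by 0.55 log2 (SE 0.43, adjusted p = 0.371) for Pax5 leukemia and by 0.54 log2 (SE 0.43, adjusted p = 0.413) for Bank1/Pax5 leukemia, mean differences above those of Rnase10 and Rnase9 in Pax5 leukemia. Ear6 read 7.27 and 7.32 log2 on Pax5 arrays 5 and 6 and 7.31 on Bank1/Pax5 array 5, against 5.56 to 5.68 on WT arrays. On Bank1/Pax5 arrays 1 and 5 the mean level of 10 eosinophil, basophil and mast cell markers was 7.09 and 7.35, against 6.05 to 6.38 on the other Bank1/Pax5 arrays and 5.87 to 6.11 in WT, and 2 of the 10 markers were called higher than in WT. On Pax5 arrays 5 and 6, where Ear6 was also high, the mean level of these markers was 6.06 and 6.26. The part of eosinophils, basophils and mast cells in the result was not tested. Rnase2a and Ear6 have near-identical copies among the eosinophil-associated genes, so their own share of the signal is uncertain.

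Most other ribonucleases, and the inhibitor that binds secreted RNases inside cells, were not called. Of 12 measured genes, 9 were not called between Pax5 leukemia and WT and 11 in each other contrast. Rnh1, the gene of that inhibitor, differed from WT by 0.24 log2 (SE 0.15, adjusted p = 0.246) when leukemia was Pax5+/- alone. The Bank1/Pax5 leukemia difference was 0.17 log2 (SE 0.15, adjusted p = 0.442). Of 12 measured genes of this list, 2 rose in Pax5 leukemia over WT, Dis3, an exosome nuclease gene, by 0.45 log2 (SE 0.12) and Xrn2, a nuclear exonuclease gene, by 0.34 log2 (SE 0.09). Zc3h12a, the gene of an RNase that degrades inflammatory mRNAs, fell by 0.73 log2 (SE 0.17) in Pax5 leukemia and by 0.76 log2 (SE 0.17) in Bank1/Pax5 leukemia, where it was the only gene of the list called. Between the leukemias Xrn2 fell by 0.46 log2 with the Bank1 allele lost (SE 0.08, adjusted p = 0.0056), again the only call in the list. The medians of the list were 0.14, 0.07 and -0.08 log2 in the 3 contrasts. Of all genes, 9.53%, 6.8% and 1.71% were called higher and 13.8%, 12.8% and 5% lower in these contrasts.

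Endosomal sensors of RNA, whose ligands ribonucleases can release or destroy, were counted over 11 genes. In Pax5 leukemia 2 rose over WT, the single-stranded RNA receptor Tlr7 by 2.12 log2 (SE 0.60, adjusted p = 0.0191) and the exonuclease Pld3 by 0.72 log2 (SE 0.21, adjusted p = 0.0233). Unc93b1, the chaperone that carries these receptors to endosomes, fell by 0.45 log2 (SE 0.13, adjusted p = 0.0241). In Bank1/Pax5 leukemia 5 rose over WT, among them Tlr8 by 2.37 log2 (SE 0.59) and Tlr13, a bacterial RNA receptor, by 2.61 log2 (SE 0.77). The others were Tlr3 by 1.21 log2, Pld3 by 0.83 log2 and the adaptor Myd88 by 0.58 log2, and Unc93b1 fell by 0.90 log2. Calls of Myd88 held in 8 of 24 settings and those of Tlr3 in 16 of 23. Between the leukemias only Unc93b1 was called in this list, and fell by 0.45 log2 in Bank1/Pax5 leukemia (SE 0.12, adjusted p = 0.0375). That call held in 10 of 24 settings. The list medians were 0.63, 0.83 and 0.19 log2, in the same order of contrasts. Shares of all genes called were 9.53%, 6.8% and 1.71% higher and 13.8%, 12.8% and 5% lower. The monocyte and macrophage markers, cells that carry several of these receptors, were higher in both leukemias as described next, and their part in these values was not tested.

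Markers of monocytes and macrophages, megakaryocytes, and stromal and endothelial cells separated the leukemic samples from the WT fraction. Other marrow cell markers did not all do so. Neutrophil markers overlapped WT, at 6.94 to 11.87 in Pax5 leukemia, 7.52 to 12.34 in Bank1/Pax5 leukemia and 7.13 to 9.91 in WT. T cell and plasma cell markers overlapped WT as well. Erythroid markers were at 7.78 to 8.19 in WT, 6.42 to 7.37 in Pax5 leukemia and 6.48 to 9.86 in Bank1/Pax5 leukemia. Of 13 measured monocyte and macrophage markers, 8 were higher than in WT in Pax5 leukemia and 11 in Bank1/Pax5 leukemia, none was lower, and the mean level of the list was 8.23 to 8.98, 8.40 to 10.59 and, in WT, 6.65 to 6.73 log2. Megakaryocyte markers ranged over 8.57 to 10.81 in Pax5 leukemia, 9.07 to 11.22 in Bank1/Pax5 leukemia and 6.97 to 7.08 in WT, with 4 and 6 of 7 called higher. Stromal and endothelial markers ranged over 8.10 to 9.16, 8.17 to 9.78 and 6.81 to 6.97, with 9 and 8 of 13 called higher. B cell precursor markers were at 11.45 to 11.65 in WT, 8.43 to 11.41 in Pax5 leukemia and 8.39 to 11.32 in Bank1/Pax5 leukemia, with 2 of 12 called lower in each leukemia and none higher. B cell precursor markers were thus high on every WT array and varied between leukemic samples. Of all genes, 9.53% were called higher than in WT in Pax5 leukemia and 6.8% in Bank1/Pax5 leukemia, and 13.8% and 12.8% were called lower.

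The Rnase12 levels can be set beside these marker levels. Bank1/Pax5 arrays 4 and 5, with Rnase12 at 10.04 and 11.72, had the highest monocyte and macrophage levels of their group, 10.59 and 10.01. The same arrays had its highest megakaryocyte levels, 11.22 and 10.997 against 9.07 to 10.33 on the others. They also had its highest stromal and endothelial levels, 9.78 and 9.34 against 8.17 to 8.70. The Pax5 arrays, with Rnase12 at 10.33 or above, had monocyte and macrophage levels of 8.23 to 8.98. Bank1/Pax5 arrays 1, 2, 3 and 6, with monocyte and macrophage levels of 8.40 to 9.20, had Rnase12 at or under 5.97. Over the 12 leukemia arrays r between Rnase12 and the macrophage level was 0.06 (rho -0.08), and -0.15 without the 2 arrays farthest from the median. It was 0.84 within Bank1/Pax5 leukemia and 0.59 within Pax5 leukemia (n = 6 each). The 0.84 mostly expressed arrays 4 and 5, since Rnase12 was at 5.82 to 5.97 on the other Bank1/Pax5 arrays. Natural killer cell markers, which were lower than WT in both leukemias for 7 and 5 of 9 genes, gave r = -0.63 (rho -0.76), and -0.34 without the 2 arrays farthest from the median. Within Pax5 leukemia this r was 0.04 and within Bank1/Pax5 leukemia -0.10 (n = 6 each), so the pooled r mostly reflected the difference between the groups. The part of these cells in the Rnase12 values was not tested. Arrays with a high Xist level, the X-inactivation RNA that marks female cells, were the 4 WT arrays and Bank1/Pax5 arrays 3 and 5, on which Rnase12 was 5.82 and 11.72. Xist was 9.96 log2 on Pax5 array 2, which had the highest Rnase12 level, 12.55. Eif2s3y, a Y-linked gene, read 4.59 log2 there, against 9.42 to 9.80 on the other Pax5 arrays and 4.58 to 4.63 on the WT arrays. By these genes all WT arrays were female and most Pax5 arrays male, so sex and group cannot be fully told apart. The part of sex in these values was not tested.

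Rnase6 instead varied most closely with markers of plasmacytoid dendritic cells among the marker lists. Over the 12 leukemia arrays r with the mean level of 8 such markers was 0.85 (rho 0.85), and 0.77 without the 2 arrays farthest from the median of the marker level. Within Pax5 leukemia r was 0.83 and within Bank1/Pax5 leukemia 0.86 (n = 6 each). Siglech, a receptor gene that marks these cells, read 6.02, 6.85, 12.56, 8.71, 8.68 and 6.36 log2 on Pax5 arrays 1 to 6, with its peak on array 3, where Rnase6 was 11.34. On Bank1/Pax5 arrays 1 to 6 it read 10.90, 6.28, 11.27, 11.26, 8.49 and 11.93, with its lowest value on array 2, where Rnase6 was 6.91, and its highest on array 6, where Rnase6 was 12.40. WT arrays had Siglech at 11.04 to 11.43. The marker list ranged over 8.73 to 11.34 in Pax5 leukemia, 8.90 to 11.09 in Bank1/Pax5 leukemia and 10.30 to 10.66 in WT, and 0 of its 8 genes were called in any contrast. T cell markers gave r = 0.78 with Rnase6 (rho 0.83) and B cell precursor markers r = -0.70 (rho -0.71) on the same arrays. Natural killer cell markers gave r = 0.64 (rho 0.57) and monocyte and macrophage markers r = 0.46 (rho 0.47). Megakaryocyte markers gave r = 0.44 (rho 0.46), and eosinophil, basophil and mast cell markers r = 0.41 (rho 0.62). The part of these cells in the Rnase6 values was not tested.

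**Figure D4:**
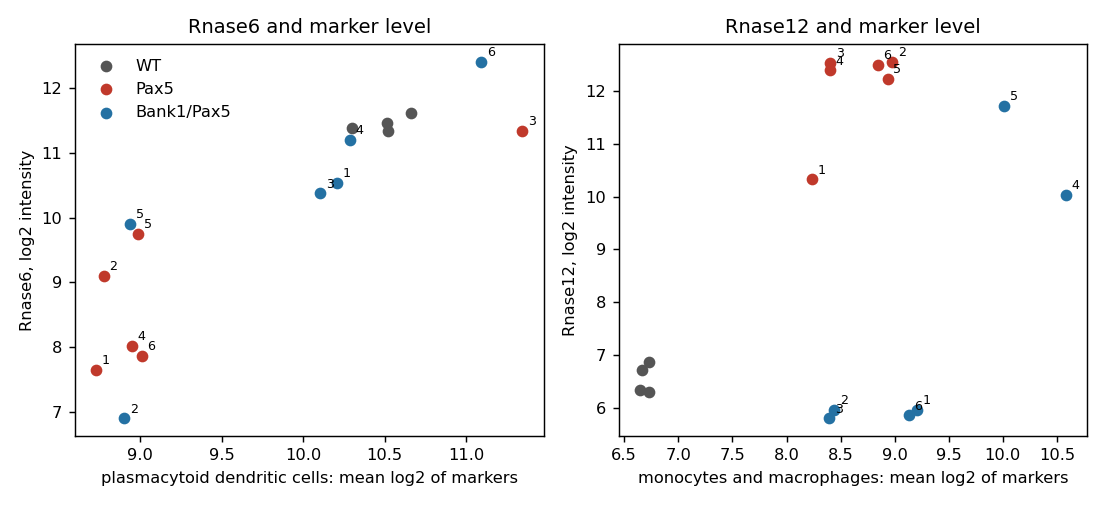
Left, Rnase6 log2 intensity against the mean log2 level of 8 plasmacytoid dendritic cell markers, and right, Rnase12 against 13 monocyte and macrophage markers, 1 point per array with leukemia arrays numbered. Rnase6 increases with its marker level (r = 0.85 over 12 leukemia arrays), while Rnase12 at similar macrophage levels is above 10 log2 in Pax5 leukemia and near 6 log2 on 4 Bank1/Pax5 arrays.

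The targeted genes were checked on all arrays. Bank1 read 7.26 to 9.52 log2 in Bank1/Pax5 leukemia and 8.80 to 11.09 in Pax5 leukemia, with WT arrays up to 9.26. The ranges of all groups overlapped, and the arrays cannot show the loss of a single allele. Pax5 read 7.52 to 12.21 in Pax5 leukemia and 7.85 to 11.85 in Bank1/Pax5 leukemia, against 11.85 to 12.12 in WT. Arrays correlated with others of their group at r of 0.944 to 0.987 in Bank1/Pax5 leukemia, 0.968 to 0.982 in Pax5 leukemia and 0.992 to 0.995 in WT.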

How the data were processed

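Bone marrow RNA was hybridised to 16 mouse oligonucleotide arrays. The authors deposited log2 intensities per probe set, made with RMA through the oligo package per the submitters' processing notes, with versions not given in the sources used here. They were not rescaled. Of 35556 probe sets, 21789 named 1 gene, 1621 several and 12146 none. The highest-mean probe set was kept for the 999 genes with more than 1, which left 19938 genes. Array medians lay between 6.58 and 6.71, and the number of arrays limits the precision.

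limma 3.58.1 (R 4.3.3) fitted a mean per group to all 16 arrays. Tests were two-sided, p-values were adjusted by Benjamini-Hochberg over all genes, and calls needed an adjusted p under 0.05. SE is the moderated standard error. The procedure was tested on simulated data. All members were named, and from each list every called gene and the gene next to Rnase12. Members and lists were chosen with earlier results of these data known. Alternatives were the probe set summary, a filter on dim genes, cyclic loess, median centring, array weights, a variance trend with robust moderation, a fit of only the 2 groups compared, a replicate block and leaving out each array. No array batch or date was given in the sources used here.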

Additional observations from a re-analysis of the deposited data

Results flagged for a closer look

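Of 15 sets of arrays (5 genes in 3 groups), 3 held an array far from the others by Dixon's gap criterion, which chance alone meets in about 1 in 20 sets. In Pax5 leukemia, array 1 had the lowest Rnase12 level, 10.33 log2, and its gap to the next array was 0.855 of the group's range. Array 5 of Bank1/Pax5 leukemia had the highest Rnase11 level, 7.06 log2, with a gap of 0.682 of the range. The same array had the highest Rnase10 level, 5.46 log2, with a gap of 0.871 of the range. It also had the highest Rnase12 level of its group, 11.72 log2. Array 1 of Pax5 leukemia was the lowest of its group for Rnase11, Rnase9, Rnase10 and Rnase6 as well. No explanation of these values was tested.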

How the results depend on the processing

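Between the leukemias, the Rnase12 difference ranged from -5.36 to -4.17 log2 over 24 settings, with adjusted p from 0.00203 to 0.0504, and was not called only in the fit of the 2 groups alone. Rnase11 ranged from -2.04 to -1.52, with adjusted p from 0.00296 to 0.0364, and was called in all 24. All these settings reuse the Pax5 arrays whose high level led to the choice, so that kept calls here are no independent support. Rnase6 (adjusted p 0.0671 to 0.540), Rnase9 (0.0647 to 0.221) and Rnase10 (0.0535 to 0.189) were not called in any, and no member was called between Bank1/Pax5 leukemia and WT. The filter on dim genes removed Rnase9 and Rnase10, which left 23 settings. In the contrast of Pax5 leukemia with WT, which entered the choice, a call that was kept is no support for a member. Calls that changed with the setting were those of Rnase10, past the threshold in 17 of 23, Rnase6 in 8 of 24 and Rnase9 in 2 of 23. Rnase6 and Rnase9 were not past it in the planned fit. Between the leukemias with a replicate block, the adjusted p was 0.0282 for Rnase12 and 0.0273 for Rnase11. Counts over all genes moved more. Pax5 leukemia minus WT gave 4655 calls, 8104 with array weights, 3112 with the replicate block and 3072 to 5560 with an array left out, the lowest without WT array 4. Bank1/Pax5 leukemia minus WT gave 3899 calls, 6416 with median centring, 6486 with array weights, 2542 with the replicate block and 2678 to 4531 with an array left out. Between the leukemias there were 1336 calls, 446 in the fit of the 2 groups, 696 with the replicate block and 725 to 1742 with an array left out, the lowest without Bank1/Pax5 array 5, and 870 and 846 without Pax5 arrays 4 and 5. The replicate numbers only name the arrays: 6 of 14 same-numbered pairs had a correlation of deviations over 0.1, and 2 of 16 arrays correlated best with their own number. The share of calls that were higher depended on scaling. It was 40.8% for Pax5 leukemia minus WT (50.3% with cyclic loess, 31.2% with centring), 34.8% for Bank1/Pax5 leukemia minus WT (50.3% and 16.9%) and 25.4% between the leukemias (43.4% and 12.4%). Median centring put the median of all genes at -0.09, -0.13 and -0.04 log2 in these contrasts. The limits of these data are the dim levels of Rnase9, Rnase10 and the WT Rnase12 and Rnase11, the comparison of total marrow with a cell fraction, the shared probe set of Rnase4 and Ang, and the larger spread in leukemia, with a median gene SD of 0.180 and 0.159 log2 against 0.0866 in WT.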
